A study of Mus musculus with 9 samples.

Results

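The levels of 10 genes of the circadian clock, out of 30827 genes that array rows with a single symbol name, were followed on 9 arrays of inguinal white fat, a subcutaneous depot of the mouse. They were chosen by symbol: the activator Arntl, the repressors Per1, Per2, Per3, Nr1d1, Ciart and Bhlhe40, and the output factors Dbp, Tef and Hlf. Each of the 10 had 1 row on the array, and all 10 passed the filter on low values (a row mean at or above 5.31 log2 units, the median of all rows), among 16972 genes tested.

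Control mice carried the transgenes Adiponectin-rtTA and TRE-Cre with wild-type Zfp423 (Zfp423+/+). Knockout mice carried Adiponectin-rtTA, Tre-CRE and both Zfp423 alleles floxed (Zfp423loxP/loxP), so that doxycycline deletes the gene in cells with an active Adiponectin promoter, while other cells of the pad keep it. All animals stayed at room temperature until 8 weeks of age and then ate doxycycline chow for 28 days, controls included. There were 3 groups of 3 arrays: controls and knockouts that remained at room temperature, and controls kept at 6 °C for the last 14 of the 28 days, called cold below. Cold exposure induces beige adipocytes in this depot. The labels give neither the hour of tissue collection nor the light schedule, so a difference in clock phase and a difference in the level of clock transcripts cannot be told apart here. Nor do they say whether each array is a different animal, and p-values then measure the spread between arrays, which may be technical.

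The mammalian clock is a feedback loop. ARNTL (also called BMAL1) pairs with CLOCK or NPAS2 and switches on genes with E-box sequences, among them the Per genes, Nr1d1, Dbp and Ciart. PER proteins with CRY proteins then block ARNTL and CLOCK, while NR1D1 (REV-ERB alpha) represses Arntl itself through ROR elements. DBP, TEF and HLF are related transcription factors that carry the rhythm to further genes through D-box sequences. In peripheral tissues of mice, adipose tissue included, Arntl transcript is therefore high when that of Nr1d1, Dbp and the Per genes is low. A shift in phase can therefore move the activator and the genes of the opposite arm, here called the day arm, in opposite directions. Genes of the day arm peak at different hours, so that a shift need not change them equally or all in the same direction. The direction for each gene depends on the hour of collection, which is not known here.

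Promoter sequence from RefSeq (GRCm38.p6) covered 8 of the 10 genes, from 250 bases before to 50 bases after each start site. The stretches shown carry matches to the motif named beside each, in capitals, and each is written 5′ to 3′ on the strand of the gene.
Ciart, E-box, chr3:95882259-95882353, minus strand: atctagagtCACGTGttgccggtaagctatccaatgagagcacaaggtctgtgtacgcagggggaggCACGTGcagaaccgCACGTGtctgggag
Tef, E-box, chr15:81802523-81802572, plus strand: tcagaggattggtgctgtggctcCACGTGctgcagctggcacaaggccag
Per1, E-box, chr11:69098769-69098828, plus strand: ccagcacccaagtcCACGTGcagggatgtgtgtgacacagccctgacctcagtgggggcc
Per3, D-box, chr4:151044806-151044880, minus strand: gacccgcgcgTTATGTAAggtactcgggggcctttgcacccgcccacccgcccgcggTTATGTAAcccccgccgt
Nr1d1, E-prime box, chr11:98775378-98775427, minus strand: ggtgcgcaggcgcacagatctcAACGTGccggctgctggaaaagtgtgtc
Hlf, cAMP response element, chr11:90390918-90390967, minus strand: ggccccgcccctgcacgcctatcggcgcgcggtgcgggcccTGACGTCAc
Arntl, core of the ROR element, chr7:113207531-113207557, plus strand: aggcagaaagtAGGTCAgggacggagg

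Ciart held 3 E-boxes, which begin at -116, -58 and -44 from its start site. Tef held 1 E-box before each of its 2 start sites and Per1 held 1, while Per3 held 2 D-boxes. The Arntl match begins 31 bases after the second of the 2 start sites listed for this gene. These motifs were searched on both strands: the E-box CACGTG, the E-prime box CACGTT, the D-box as TTATGTAA, TTACGTAA or TTGTGTAA, the ROR element core AGGTCA and the cAMP response element TGACGTCA. They occur in 7.15%, 4.68%, 1.77%, 16.3% and 1.79% of all 32851 promoters of the same length in the table. No match in the promoters of these genes overlapped another. The Per1 window also holds the ROR core on its other strand. A match describes the letters only, and Dbp, without any of these motifs in this window, may carry them elsewhere.

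The whole series sets the scale for what follows. By limma with Benjamini-Hochberg adjustment over 16972 genes, 0.365% of genes passed an adjusted p of 0.05 between knockout and control, 1.51% between cold and control, and 2.40% between cold and knockout. Ucp1, the uncoupling protein of thermogenic fat, stood 6.90 ± 0.47 (SE) log2 units above control in the knockouts and 6.61 ± 0.47 in the cold (limma adjusted p = 0.00869 and 0.00227). Zfp423 read 8.74, 8.22 and 8.40 in the controls and 7.56, 8.15 and 8.04 in the knockouts, a difference of -0.53 ± 0.20 that did not pass (limma adjusted p = 0.256). The arrays of the knockouts lay below those of the controls. Of 12 adipocyte markers 11 were measured, and their summed level lay between 21.06 and 21.40 log2 units on all arrays. Their mean deviation from the control mean was 0.16, -0.19 and 0.04 in the controls, -0.59, 0.13 and -0.14 in the knockouts and 0.31, 0.31 and 0.24 in the cold, so that among the controls it was highest on replicate 1 and lowest on replicate 2, as were most of the clock genes; its part in the clock values was not tested. Each group had an array whose values fell, for most genes, between those of its 2 companions: control replicate 3 (67.4% of genes), knockout replicate 3 (73.7%) and cold replicate 2 (52.8%). Because such arrays narrow the spread within groups, counts without them are given beside the results. The description field of cold replicate 3 opens with a code that differs from that of the other 8 arrays, which the sources used here do not explain.

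**Figure D1:**
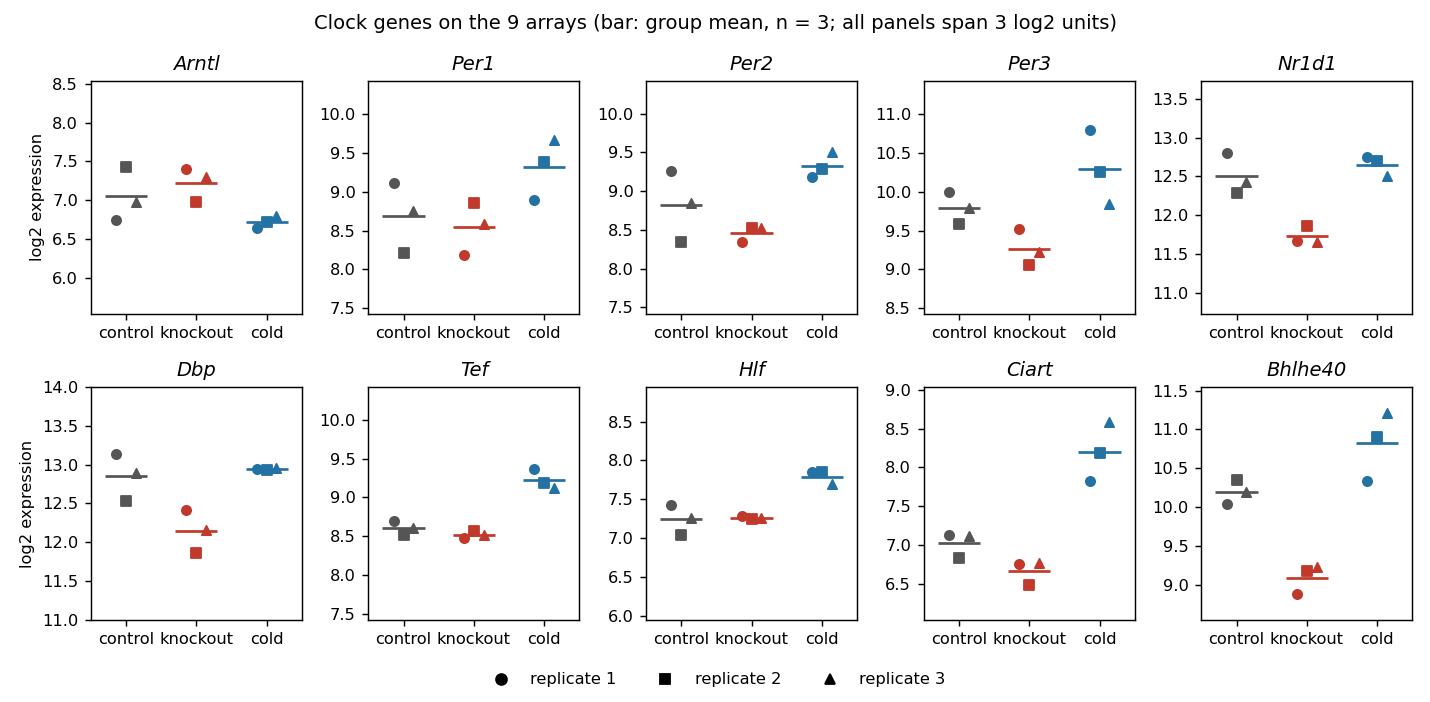
Log2 expression (y axis) of the 10 clock genes on each array, by group (x axis), with symbols for replicates and a bar for the group mean (n = 3). Each panel spans 3 log2 units. Ciart, Tef and Hlf lie higher on all cold arrays than on all others, and Bhlhe40, Nr1d1 and Dbp lie lower on all knockout arrays than on all others.

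In the cold, 3 of the 10 clock genes rose and 0 fell: Ciart, Tef and Hlf (limma adjusted p under 0.05). Of all genes 1.51% passed, 1.31% higher and 0.194% lower. Ciart, whose product (CHRONO) represses ARNTL and CLOCK, rose most among them, by 1.17 ± 0.19 (SE) log2 units or 2.26-fold. The activator Arntl stood 0.33 log2 units lower and the other 6 genes stood higher, without passing. At an unadjusted p under 0.05 there were 5 of the 10 genes, against 20.3% of all genes. The arrays did not overlap for 3 of the 10, all higher in the cold, where 32.7% of all genes did not overlap, 14.6% higher and 18.2% lower. The median difference of the 10 genes was 0.53, against -0.02 over all genes tested.

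Ciart read 7.13, 6.83 and 7.12 log2 units on control replicates 1, 2 and 3 and 7.83, 8.19 and 8.59 on the cold arrays. All cold arrays lay above all controls, and their own spread (SD 0.38) was wider than that of the controls (SD 0.17). The limma adjusted p was 0.0391.

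The output factors did not move alike. Tef read 8.70, 8.52 and 8.61 in the controls and 9.36, 9.18 and 9.12 in the cold, a rise of 0.61 ± 0.07 (SE; limma adjusted p = 0.0141). Hlf read 7.42, 7.04 and 7.26 against 7.85, 7.85 and 7.69, a rise of 0.55 ± 0.10 (limma adjusted p = 0.0447). For both, the cold arrays lay clear above the controls. Dbp, the third of this family, read 13.14, 12.53 and 12.89 in the controls and 12.95, 12.93 and 12.96 in the cold. The cold arrays sat close together within the control range, and the difference was 0.09 log2 units with a 95% interval from -0.34 to 0.52 (limma adjusted p = 0.807). Whether the change of Dbp differs from that of Tef or Hlf was not tested.

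Among the repressors, the Per genes were higher on average in the cold without passing. Per1 read 9.12, 8.21 and 8.75 in the controls and 8.90, 9.38 and 9.67 in the cold. Per2 read 9.26, 8.34 and 8.85 against 9.18, 9.29 and 9.5. Per3 read 10, 9.59 and 9.79 against 10.80, 10.26 and 9.84. In each of the 3 genes control replicate 1 reached into the range of the cold arrays. The differences were 0.63 ± 0.30, 0.51 ± 0.22 and 0.51 ± 0.25 (SE; limma adjusted p = 0.282, 0.246 and 0.296).

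Nr1d1, the direct repressor of Arntl, read 12.80, 12.28 and 12.43 in the controls and 12.75, 12.70 and 12.51 in the cold. The groups overlapped, with a difference of 0.15 and a 95% interval from -0.18 to 0.48 (limma adjusted p = 0.572). Bhlhe40, whose product (DEC1) competes at E-boxes, read 10.04, 10.35 and 10.19 against 10.34, 10.90 and 11.21. Only the lowest cold array fell within the control range, and the difference of 0.62 ± 0.22 (SE) did not pass (limma adjusted p = 0.186). Arntl read 6.74, 7.43 and 6.98 in the controls and 6.64, 6.72 and 6.79 in the cold. The cold arrays lay near the lowest control, and the difference of -0.33 had a 95% interval from -0.76 to 0.10 (limma adjusted p = 0.343).

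The calls in the cold depended on single arrays. Without control replicate 2 or cold replicate 3 only Tef passed, without control replicate 1 Hlf and Tef passed, and without cold replicate 1 Ciart and Tef passed. Without control replicate 3, knockout replicate 3 or cold replicate 2, each the array between the others of its group, 0 of the 10 passed by limma (3, 4 and 3 at an unadjusted p under 0.05). Without all 3 of these arrays 0 passed as well (3 at an unadjusted p under 0.05). The differences themselves moved little: over all alternatives Ciart ranged from 0.98 to 1.36, Tef from 0.55 to 0.66 and Hlf from 0.45 to 0.64.

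Loss of Zfp423 at room temperature gave 0 calls among the 10 genes by limma, with 3 at an unadjusted p under 0.05. Of all genes 0.365% passed, 0.224% higher and 0.141% lower, and 16.2% had an unadjusted p under 0.05. A negative difference was seen in 8 of the 10, against 7297 of all 16972 genes tested. The median was -0.36, against 0.02 over all genes tested. The knockout arrays lay below all control arrays for 5 of them, namely Bhlhe40, Nr1d1, Dbp, Per3 and Ciart, where 17.3% of all genes did not overlap, 9.31% higher and 8.03% lower. An exact permutation test of 3 arrays against 3 cannot fall under 0.1, the value it gave for each of these 5 genes.

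Bhlhe40 showed the largest of these differences. It read 8.88, 9.17 and 9.22 in the knockouts, against 10.04 to 10.35 in the controls, a difference of -1.11 ± 0.22 (SE; limma adjusted p = 0.0814). Nr1d1 read 11.67, 11.86 and 11.66 against 12.28 to 12.80, a difference of -0.77 ± 0.14 (limma adjusted p = 0.0721). Without control replicate 2 Nr1d1 passed, at -0.89 (limma adjusted p = 0.0395). Dbp read 12.42, 11.86 and 12.16 against 12.53 to 13.14, a difference of -0.71 ± 0.18 (limma adjusted p = 0.131). In all 3 genes the highest knockout array stood below the lowest control.

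Per3 read 9.52, 9.06 and 9.23 in the knockouts, at -0.52 ± 0.25 (SE) from control, and Ciart read 6.75, 6.48 and 6.77, at -0.36 ± 0.19. The limma adjusted p was 0.357 and 0.409, with the highest knockout array only just under the lowest control in both genes. Per2 read 8.34, 8.53 and 8.52 and Per1 8.19, 8.86 and 8.59. Both groups of arrays overlapped the controls, with differences of -0.35 ± 0.22 and -0.15 ± 0.30 (limma adjusted p = 0.468 and 0.844). Without control replicate 1 or knockout replicate 1 the Per1 difference turned to 0.07 and 0.03.

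The other output factors stayed close to control. Tef read 8.48, 8.56 and 8.51 in the knockouts, with a difference of -0.09 and a 95% interval from -0.26 to 0.08, and Hlf read 7.28, 7.24 and 7.26, with a difference of 0.02 and an interval from -0.21 to 0.25 (limma adjusted p = 0.574 and 0.942). The Hlf difference was -0.08 without control replicate 2. Arntl read 7.40, 6.98 and 7.30, inside the control range of 6.74 to 7.43. Its difference was 0.18 with an interval from -0.26 to 0.61 (limma adjusted p = 0.677).

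**Figure D2:**
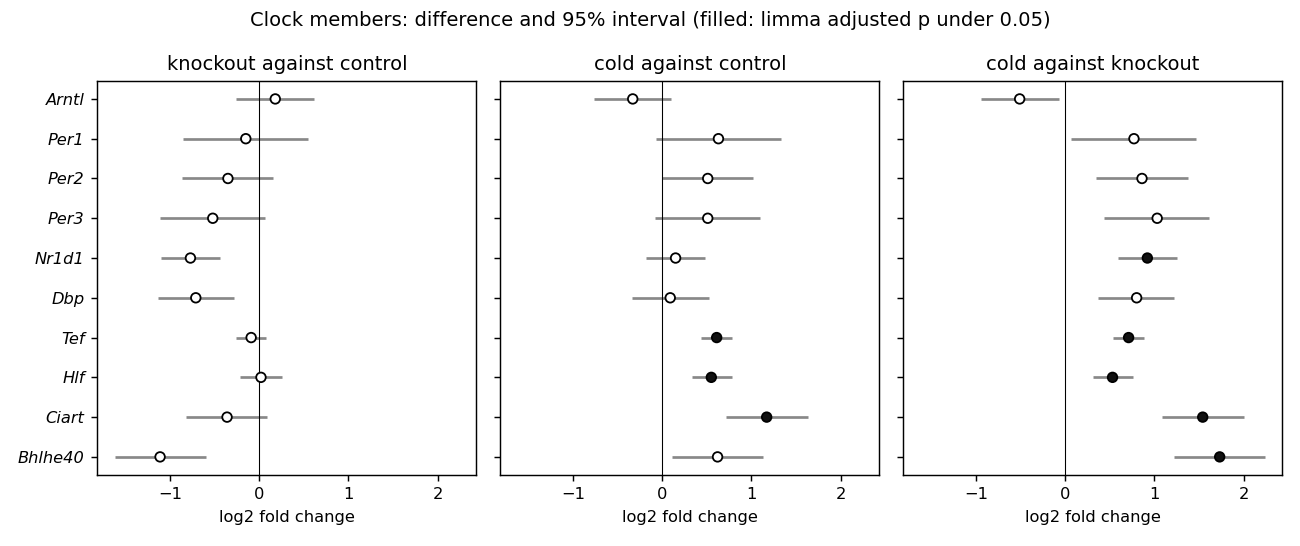
Log2 fold change (x axis) of each clock gene in the 3 comparisons, with its 95% interval from limma; filled points passed an adjusted p of 0.05. No point is filled for knockout against control, 3 are filled for cold against control and 5 for cold against knockout.

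The arms of the clock stood furthest apart between the cold arrays and the knockout arrays, both of thermogenic tissue with Ucp1 at 19.0 ± 0.16 and 19.3 ± 0.85 (SD, n = 3). In the cold 5 of the 10 genes were higher and 0 lower (limma adjusted p under 0.05), against 2.40% of all genes, 1.24% higher and 1.15% lower. All 10 had an unadjusted p under 0.05, against 26.8% of all genes. The cold and knockout arrays were separate for each of the 10, with Arntl lower and the other 9 higher in the cold, where 32.3% of all genes did not overlap, 12.3% with the cold arrays higher. This comparison shares the cold arrays and the knockout arrays with the preceding ones, so that it is no separate evidence of direction.

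Bhlhe40 was 1.73 ± 0.22 (SE) log2 units or 3.32-fold higher in the cold than in the knockouts, and Ciart 1.54 ± 0.19 or 2.90-fold (limma adjusted p = 0.0173 for both). Nr1d1 was 0.92 ± 0.14 higher, Tef 0.71 ± 0.07 and Hlf 0.53 ± 0.10 (limma adjusted p = 0.0272, 0.0103 and 0.0417). Per3, Per2, Dbp and Per1 differed by 1.03 ± 0.25, 0.86 ± 0.22, 0.80 ± 0.18 and 0.77 ± 0.30 without passing (limma adjusted p = 0.0716, 0.075, 0.0655 and 0.159). Arntl stood 0.51 ± 0.18 lower in the cold and did not pass (limma adjusted p = 0.142).

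Control arrays entered this comparison only through the shared estimate of the spread, yet leaving one out moved its calls. Without control replicate 1, 6 genes passed, 7 without control replicate 2, and 1, Tef, without control replicate 3. Bhlhe40, Ciart and Tef passed without knockout replicate 1, cold replicate 1 or cold replicate 3. By limma 0 passed without knockout replicate 3 or cold replicate 2 (8 at an unadjusted p under 0.05 in both), and 0 without the 3 arrays between the others of their groups (5 at an unadjusted p under 0.05).

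The activator and the day arm were then set against each other array by array. The day arm is the mean difference of the other 9 genes from their control means, and the index is the day arm minus the same difference of Arntl. Since these genes were chosen with results known, the index is a description with no test. It stood at 0.52, -0.61 and 0.09 in control replicates 1, 2 and 3, at -0.81, -0.39 and -0.67 in the knockouts, and at 0.88, 0.87 and 0.85 in the cold. Cold arrays were thus all higher than any control. The knockout arrays were below control replicates 1 and 3, and control replicate 2 lay inside their range.

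Of the spreads within a group, that of the index was widest among the control arrays. Arntl was highest and 8 of the 9 day-arm genes were lowest in control replicate 2, and the reverse held in control replicate 1. Bhlhe40 was the exception, with its highest value on replicate 2 and its lowest on replicate 1. Control replicate 3 lay between these 2 arrays for 67.4% of genes, so that most genes of the array had their extremes on them. How many of all genes followed either order was not counted. The span of Arntl among controls, 0.69 log2 units, was larger than its difference between any 2 groups, and the spans of Per1 and Per2 were 0.91 and 0.92. Among the cold arrays Arntl spanned 0.15 and Dbp 0.03, and the index centred on the group mean stayed between -0.01 and 0.01. In the knockouts that index ran from -0.19 to 0.24, and it was carried by Arntl, as their day arm stood at -0.47, -0.46 and -0.42 on the 3 arrays. Cold replicates still differed in single genes, with Per3 highest on replicate 1 (10.80) and Ciart and Bhlhe40 highest on replicate 3.

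**Figure D3:**
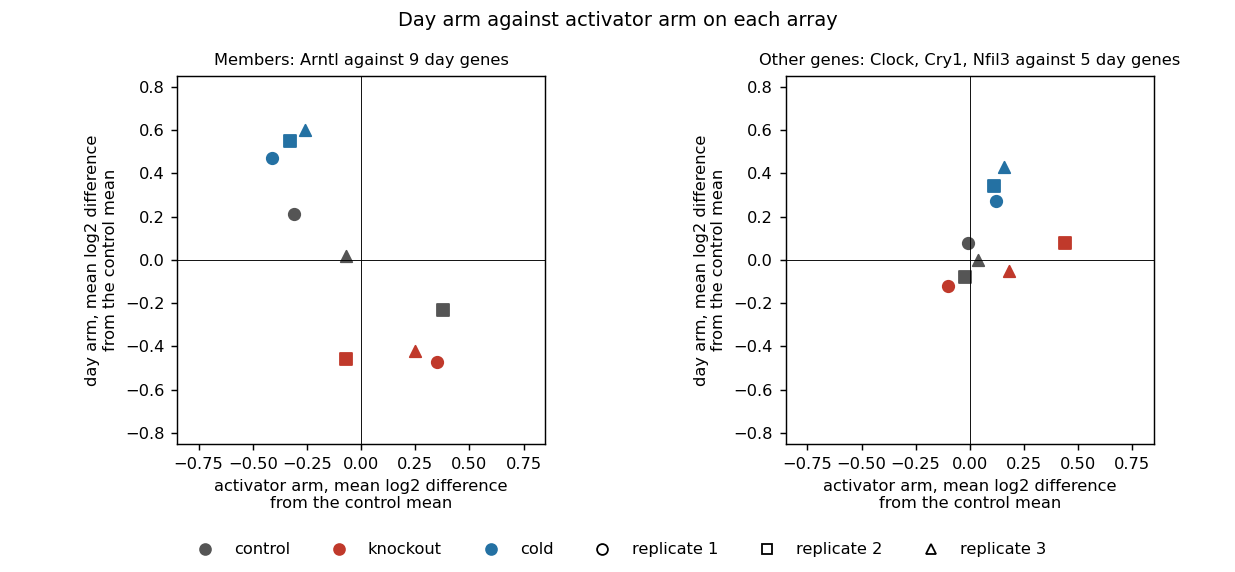
Mean log2 difference from the control mean of the activator arm (x axis) and the day arm (y axis), 1 point per array, for the 10 clock genes (left) and for other clock genes (right: Clock, Cry1 and Nfil3 against Nr1d2, Usp2, Wee1, Bhlhe41 and Cry2). On the left the cold arrays lie at upper left and control replicate 2 at lower right beside knockout replicates 1 and 3; on the right the cold arrays lie above 0 on both axes.

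Markers of other cells varied along with the clock genes among the controls. Relative to the control mean, the 9 measured B cell markers stood at -0.83, 0.79 and 0.04 in control replicates 1, 2 and 3 and the 12 macrophage markers at -0.42, 0.43 and -0.01. The summed level of these lists ran from 13.20 to 14.95 and from 15.48 to 17.11 log2 units in the controls. In the cold they ran from 12.23 to 13.30 and from 14.99 to 15.08, and in the knockouts from 13.06 to 14.64 and from 15.26 to 17.77. The B cell list stood at -1.74, -1.17 and -0.68 and the macrophage list at -1.15, -1.06 and -0.97 on the cold arrays, against 0.49, -0.92 and -0.13 and 0.40, -1.10 and -0.21 on the knockout arrays. The array with the highest Arntl was also the array with the highest B cell and macrophage levels in each of the 3 groups. The 9 measured T cell markers stood at -0.33, 0.35 and -0.02 in the controls, 1.43, -0.22 and 0.83 in the knockouts and -0.86, -0.94 and -1.03 in the cold, and their summed level ran from 12.78 to 13.55, from 12.86 to 14.75 and from 11.99 to 12.17. On the array with the highest Arntl, the T cell list was highest in the controls and in the knockouts but lowest in the cold. The part of these cells in the clock values was not tested. In tissue RNA, fewer cells of a type and less RNA per cell cannot be told apart.

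Skeletal muscle markers (11 of 11 measured) stood at 0.30, -0.70 and -3.81 on the cold arrays and were lowest on replicate 3. On that replicate Ciart, Bhlhe40, Per1, Per2, Arntl and Dbp were highest among the cold arrays. Per3, Nr1d1, Tef and Hlf were lowest there and highest on replicate 1, as the muscle markers were. The summed level of the muscle markers ran from 16.20 to 16.84 in the controls, from 14.70 to 16.98 in the knockouts and from 10.68 to 16.79 in the cold. The part of muscle in the clock values was not tested. Endothelial markers (10 of 10) stood between -0.17 and 0.18 in the controls, between -0.50 and 0.33 in the knockouts and between 0.22 and 0.45 in the cold, with summed levels of 15.31 to 15.73, 14.80 to 15.84 and 15.74 to 16.06. Fibroblast and progenitor markers (8 of 10) stood between -0.29 and 0.36, between -1.06 and -0.18 and between -0.89 and -0.79 in the same order, with summed levels of 16.08 to 16.84, 15.46 to 16.29 and 15.55 to 15.79. Of 8 mammary epithelium markers 0 passed the filter on low values.

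Of 24 clock genes outside the chosen 10, 19 passed the filter. None passed the threshold between knockout and control or between cold and control by limma (5 and 3 at an unadjusted p under 0.05, against 16.2% and 20.3% of all genes). Between cold and knockout 1 was higher and 0 lower, against 2.40% of all genes that passed. This was the PER partner Cry2, at 0.53 ± 0.09 (SE; limma adjusted p = 0.039). It did not pass without control replicate 3, knockout replicate 1 or 3, or any 1 of the cold replicates. Their median differences were -0.04, 0.10 and 0.09 in the 3 comparisons, against 0.02, -0.02 and -0.03 over all genes tested.

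The other genes of the activator side stood above control on average in both comparisons, while Arntl stood above it in the knockouts and below it in the cold. Clock, the partner of ARNTL, read 12.43, 11.97 and 12.27 in the controls, 11.86, 13.23 and 12.56 in the knockouts and 12.35 on each cold array. Its differences of 0.33 ± 0.31 and 0.13 ± 0.31 (SE) did not pass (limma adjusted p = 0.642 and 0.845), and among the knockouts it was highest where Arntl was lowest. Cry1, a repressor whose transcript peaks late like that of Arntl, read between 7.02 and 7.10 on all 9 arrays and 7.07 on each cold array. A row this flat carries little information on direction. Nfil3, a repressor at D-boxes that is itself held down by NR1D1, stood at 0.15 ± 0.11 in the knockouts and 0.25 ± 0.11 in the cold (limma adjusted p = 0.544 and 0.265), so that in the cold its sign was opposite to that of Arntl. Npas2, which can stand in for CLOCK, read 4.99 on 8 arrays and 5.05 on the other, below the filter.

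On the side of the day arm, Nr1d2, the close relative of Nr1d1, stood at -0.17 ± 0.08 (SE) in the knockouts and 0.11 ± 0.08 in the cold, and Cry2 at -0.26 ± 0.09 and 0.27 ± 0.09. Wee1, a cell cycle kinase gene under E-box control, stood at -0.16 ± 0.13 and 0.14 ± 0.13. All 3 missed the threshold in both comparisons (limma adjusted p between 0.18 and 0.581). Usp2, a deubiquitinase gene with a strong daily rhythm in many tissues, broke this pattern. It read 7.16, 7.20 and 7.26 in the controls, 7.58, 8.43 and 7.78 in the knockouts and 7.88, 8.32 and 8.59 in the cold. Every knockout and cold array lay above every control, with differences of 0.72 ± 0.25 and 1.06 ± 0.25 that did not pass (limma adjusted p = 0.215 and 0.0921).

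Noct and Rora, singled out after their values were seen, had the widest differences of the other clock genes between cold and knockout. Noct, a rhythmic gene once described as a deadenylase, read 6.85, 7.27 and 6.89 in the controls, 7.63, 9.04 and 8.35 in the knockouts and 7.24, 7.30 and 7.01 in the cold. The knockout arrays lay above all others, at 1.34 ± 0.33 (SE) from control (limma adjusted p = 0.116). Without knockout replicate 1 Noct passed. Rora, an activator of Arntl at ROR elements, read 10.28, 9.13 and 9.67 in the controls, 8.81, 9.35 and 8.83 in the knockouts and 10.10, 10.11 and 10.10 in the cold. It was 1.11 ± 0.28 higher in the cold than in the knockouts (limma adjusted p = 0.0758), and it spread widely among the controls. Rora has 3 rows, and with their mean in place of the brightest the difference was 0.66 and did not pass either. It passed without control replicate 1 or 2 or knockout replicate 2.

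**Figure D4:**
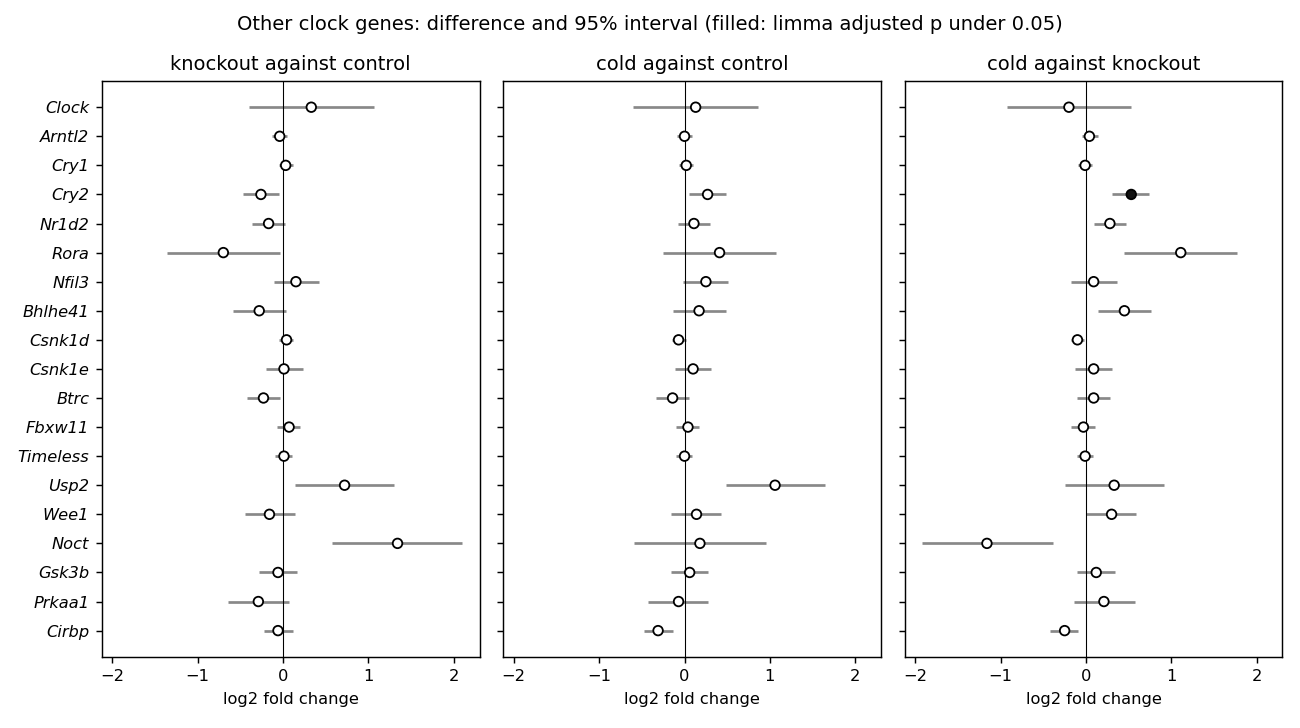
Log2 fold change (x axis) with 95% interval from limma for the 19 other clock genes that passed the filter, in the 3 comparisons; filled points passed an adjusted p of 0.05. Cry2 between cold and knockout is the 1 filled point.

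Across the 10 genes the sign of Arntl was opposite to that of most of the day arm in each comparison, 8 of 9 genes in the knockouts and 9 of 9 in the cold. Of all 16972 genes tested, 7297 stood below control in the knockouts and 7339 above it in the cold. These counts rest on the sign of Arntl, whose leave-one-out range was 0.02 to 0.37 in the knockouts and -0.49 to -0.14 in the cold. Per1 changed sign in the knockouts without control or knockout replicate 1. Arntl itself passed in none of the comparisons. For the other clock genes (Clock, Cry1 and Nfil3 against Nr1d2, Usp2, Wee1, Bhlhe41 and Cry2) the same index, relative to the control mean, stood at 0.10, -0.06 and -0.03 in the controls, at -0.02, -0.36 and -0.23 in the knockouts and at 0.16, 0.23 and 0.26 in the cold. It had the sign of the index of the 10 genes on all knockout and cold arrays, with smaller values. In the cold, however, both of its arms stood above control. On knockout replicates 1, 2 and 3 its day arm stood at -0.12, 0.08 and -0.05 and its activator arm at -0.10, 0.44 and 0.18. Only on knockout replicate 3 did these arms lie on opposite sides of control. The differences were uneven within the day arm: Bhlhe40, Nr1d1 and Dbp had the largest differences in the knockouts, and Ciart, Per1, Bhlhe40 and Tef in the cold, where Dbp and Nr1d1 had the smallest. The knockout and the cold comparisons share the control arrays.

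Likeness to Arntl and to Dbp was measured as Pearson's r over the 9 arrays after each group mean was subtracted, over 16905 genes that varied, as a description that leaves few independent values. Genes that are predicted, small RNAs, olfactory or vomeronasal receptors or segments of immunoglobulin or T cell receptor genes were passed over in naming, and some of them ranked among the extremes. Of the rest, those most like Arntl were Cd24a, Fam111a, B4galt5, Dennd3 and Mrgpra3 (r from 0.98 to 0.99), and the most opposite were Olfml1, Aldh1a1, Prex2, Lbp and Myo1d (r from -0.99 to -0.98). Among clock genes Rora had r = -0.96 with Arntl, Nr1d1 -0.89, Per2 -0.79, Hlf -0.77, Tef -0.74 and Per1 -0.69, while Dbp had -0.27, Per3 -0.25, Ciart 0.02 and Bhlhe40 0.30. Clock genes outside the day arm were as opposite, with Prkaa1 at -0.90, Gsk3b -0.82, Fbxw11 -0.75, Clock -0.74 and Csnk1e -0.73. Cry2 had -0.77, and the most positive were Cry1 at 0.66 and Timeless at 0.59. These 2 genes hardly varied, with readings from 7.02 to 7.10 and from 5.53 to 5.64 over the 9 arrays, so that their r says little. Ranked from the highest r, Nr1d1 was at 16398 and Per1 at 14374 of 16905, so that many other genes were more opposite. Of the genes not passed over, those most like Dbp were Rin2, Cercam, Fuca1, Serping1 and Pcolce (r from 0.98 to 0.99). The most opposite were Snrpd3, Rab5c, Hint1, Nabp1 and Cidea (r from -0.98 to -0.97). Nfil3 had r = -0.90 with Dbp, Noct -0.84, Wee1 0.80 and Hlf 0.71, and Arntl2, which read only 6.59 to 6.73, had 0.71. None of these 20 named genes is on the clock lists.

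Clock genes also respond to hormones and stress signals, and lists of such genes were read on the same arrays. Of 12 glucocorticoid-responsive genes 0 passed in the cold by limma (5 at an unadjusted p under 0.05, against 20.3% of all genes). In the knockouts 1 passed, against 0.365% of all genes, the pyruvate dehydrogenase kinase Pdk4 at 3.23 ± 0.41 (SE; limma adjusted p = 0.0378). The list holds Per1, and it holds Pdk4 with its large difference in the knockouts. Its level stood at 0.26, -0.33 and 0.06 in the controls, -0.04, 0.75 and 0.41 in the knockouts and 0.32, 0.62 and 0.85 in the cold. Control replicate 1 was above control replicate 2 here as it was for Per1. Tsc22d3 and Fkbp5, glucocorticoid targets, and Klf9, also under clock control, differed by 0.68 ± 0.21, 0.50 ± 0.25 and 0.90 ± 0.30 in the cold without passing (limma adjusted p = 0.156, 0.298 and 0.169). In the knockouts they differed by 0.14 ± 0.21, -0.02 ± 0.25 and 0.40 ± 0.30 (limma adjusted p = 0.78, 0.983 and 0.547).

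Of 12 immediate early and cAMP-responsive genes 9 were measured, and 0 passed in either comparison with control by limma. At an unadjusted p under 0.05 there were 2 in the knockouts and 0 in the cold, against 16.2% and 20.3% of all genes. Nr4a1, an immediate early nuclear receptor, read 8.09, 11 and 9.53 in the knockouts against 7.18 to 7.52 in the controls and 7.06 to 7.24 in the cold, and Fos was below the filter. Its difference of 2.24 ± 0.63 (SE) did not pass (limma adjusted p = 0.155). Of the 2 cold-inducible RNA binding genes, Cirbp stood at -0.31 ± 0.07 in the cold and did not pass (limma adjusted p = 0.0852). Rbm3 stood at -0.01 ± 0.06 there and was 0.38 ± 0.06 lower in the cold than in the knockouts (limma adjusted p = 0.0289). It was the 1 of 8 measured heat and cold shock genes that passed in that comparison, against 2.40% of all genes, and 0 passed in the other 2 by limma. At an unadjusted p under 0.05 there were 6 in the knockouts, all higher. In the cold there were 4, with 2 higher and 2 lower. Of all genes 16.2% and 20.3% had such a p in these 2 comparisons. The part of these signals in the clock values was not tested.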

How the data were processed

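Total RNA was hybridised to Affymetrix mouse transcriptome arrays, 1 per sample, per the labels. The authors deposited log2 values for 72688 rows, made with Affymetrix Expression Console per the submitters' processing notes. The version, summarisation and build are not given in those notes. The log2 scale was taken from the values (1.84 to 19.93). They carry no detection call, and precision is limited by the number of arrays.

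Gene names came from the platform's annotation, updated by Entrez gene ID with RefSeq symbols (GRCm38.p6): 31388 rows name 1 gene and 1362 several. Rows with a mean at or above 5.31 were kept and the brightest row per gene was used. The values were fitted with limma 3.58.1 in R 4.3.3 over all 9 arrays (3 group means, eBayes, two-sided, Benjamini-Hochberg over 16972 genes, threshold 0.05). The fit was tested on simulated data.

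The members and lists were chosen with earlier results of these data known. Named were the members, fixed clock genes, others past the threshold, and up to 3 cue genes per list. The phase index was planned centred on group means; centring on control means was added later. The alternatives, including arrays left out one by one, are given in the closing section.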

Additional observations from a re-analysis of the deposited data

How the results depend on the processing

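Of the results for single clock genes, 331, 314 and 292 kept their direction and side of the threshold in the 3 comparisons (knockouts with controls, cold with controls, cold with knockouts). A call was lost in 0, 24 and 39 and gained in 20, 16 and 22. The calls lost in the cold were those of Ciart, Tef and Hlf. The sign changed in 5, 2 and 3, to values between -0.08 and 0.14. Those were Per1 in the knockouts (0.07 and 0.03 without control or knockout replicate 1; leave-one-out range -0.39 to 0.07), Hlf (-0.08 without control replicate 2, range -0.08 to 0.11, 0.00 with array weights), Clock (-0.01 in the knockouts and 0.14 in cold against knockout, without knockout replicate 2; ranges -0.01 to 0.67 and -0.55 to 0.14), Dbp in the cold (-0.07 without control replicate 2, range -0.07 to 0.24) and Cry1 (0.00 in the cold without control replicate 1; in cold against knockout 0.05 after quantile normalization and 0.00 with array weights). The cause was not tested. Counts below follow the order of the 3 comparisons and come from limma. Of the 10 clock genes, 0, 3 and 5 passed, with leave-one-out ranges of 0 to 1, 0 to 3 and 0 to 7. With array weights, whose estimation did not converge, 9, 9 and 10 passed. With no filter 1 passed in the cold (4 at an unadjusted p under 0.05). With the replicate block 0, 0 and 1 passed (4, 5 and 8 at an unadjusted p under 0.05), and without the 3 arrays between the others, an alternative chosen after seeing the data, 0, 0 and 0 (2, 3 and 5). Of the other clock genes, 0, 0 and 1 passed, with ranges of 0 to 1, 0 to 1 and 0 to 3; array weights gave 15, 8 and 11, fitting 2 groups only gave 0, 2 and 2, and no filter, the replicate block and leaving out the between arrays gave 0 in cold against knockout (7, 8 and 1 at an unadjusted p under 0.05). Over all genes 62, 256 and 407 passed, with ranges of 0 to 825, 23 to 984 and 14 to 2724. No filter gave 14, 130 and 221, array weights 11887, 9006 and 10020, and the replicate block 1, 42 and 36. The stricter filter (75th percentile, which drops Arntl and Ciart) gave 146 in the knockouts and 711 in cold against knockout, trend and robust 37 in the knockouts, quantile normalization 401 in the cold, and 2 groups only 0 in the knockouts (1959 at an unadjusted p under 0.05) and 1351 in the cold. Leaving out the between arrays gave 0 in all 3 (691, 791 and 989 at an unadjusted p under 0.05). The phase index of cold replicate 1, centred on the group mean, went from 0.01 to -0.01 after quantile normalization. The index relative to the control mean was not computed under the alternatives. Same-numbered arrays of different groups did not deviate together (r from -0.46 to 0.09 over 9 pairs), so the numbers were not taken to pair them.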
